A study of Mus musculus with 24 samples.

Results

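Chemokines and their receptors were described in hearts of ovariectomised mice, sampled 3 weeks after myocardial infarction (MI-3W in the labels) and measured by stranded poly(A) RNA sequencing. The genes were those of the deposited count table whose symbols begin with Ccl, Cxcl, Cx3cl, Xcl, Ccr, Cxcr, Cx3cr or Ackr and end in a number with at most 1 letter after it. That rule used names alone and found 58 of 21878 genes: 37 ligands, 17 signalling receptors and 4 atypical receptors. All groups shared ovariectomy, infarction and an injected adeno-associated virus, AAV9, which is used to carry genes to the heart. They were miR-21 swim (AAV9-OE miR-21 and swimming training before the infarction, 5 libraries analysed), miR-21 control (AAV9-OE miR-21 without swimming, 6), empty swim (AAV9-Empty and swimming, 6) and empty control (AAV9-Empty without swimming, 6). The promoter of the vector, the infarct size, the part of the heart that was taken and the age of the mice are not stated in the labels used here.

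Chemokines are small secreted proteins that guide leukocytes along a gradient by binding G protein-coupled receptors on them. In an injured heart, CCR2 ligands are known for drawing monocytes from blood, CXCR2 ligands for drawing neutrophils, and CXCL12 with its receptor CXCR4 for holding and guiding progenitor and immune cells. CCL19 and CCL21 lead cells that carry CCR7 towards lymphatic vessels and lymph nodes, while CXCL13 gathers B cells. Atypical receptors (ACKR) bind chemokines without the usual G protein signal, and thereby remove or relocate them.

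The vector carried miR-21, whose mature mouse form is printed here because its seed (bases 2 to 8, in capitals) defines the match that was searched in the 3′ untranslated regions (UTRs) of the genes. The sequence is that of RefSeq (GRCm38.p6).
mmu-miR-21a-5p: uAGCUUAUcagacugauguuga
The 7-base match ATAAGCT occurred in the UTRs of 5 of 39 tested chemokine and receptor genes (12.82%), against 1012 of 12969 tested genes of the table with a UTR of at least 30 bases (7.8%). UTRs were those of GENCODE M21, and the 5 genes were Ccl22, Ccl3, Ccl9, Cxcl9 and Cxcr6. Windows of 30 bases are given for them with the match in capitals.
Ccl22: tgtttggtattATAAGCTatagttatattt
Ccl3: ctccatctcctATAAGCTgtttgctgccaa
Ccl9: aattttttttgATAAGCTgaccattgtcaa
Cxcl9: catctagaaacATAAGCTtacatggaagac
Cxcr6: ggccagaataaATAAGCTgaatttcagtgg
None of these 5 passed the test of the miR-21 vector against the empty vector in hearts of untrained (without swimming) or trained mice. Their log2 fold changes for miR-21 in untrained hearts were -1.53 (Ccl22), -0.04 (Ccl3), -1.30 (Ccl9), -1.12 (Cxcl9) and -1.42 (Cxcr6), within the range of the other tested chemokine and receptor genes. The smallest of their adjusted p-values in that comparison was 0.113, for Cxcl9. Without the 3 libraries described in the next paragraph, Ccl9, Cxcl9 and Cxcr6 were at -0.50, -0.11 and -0.41, and Ccl22 and Ccl3 were not tested.

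Library totals ran from 12744241 to 14657630 counts, and the 58 genes took 0.0434% to 0.1752% of them. Markers of cardiomyocytes, the contractile cells of the labelled tissue, were high in every library, with 61129 to 119560 CPM (counts scaled to a common library size) summed over 10 genes. 3 libraries, miR-21 swim replicate 2 and empty control replicates 2 and 5, had adipocyte scores of 2.82 to 3.03, against at most 0.832 in the other 20, where the score is the mean of centred log2 CPM over the tested adipocyte markers. Of 7 tested adipocyte markers, 4 (Adipoq, Cfd, Car3 and Cidec) fell in empty swim relative to empty control hearts, with log2 fold changes of -5.45 to -6.03. The other 3 markers had positive values there. Summed adipocyte markers did not set the 3 libraries apart, with 1269 to 1551 CPM against 1070 to 1568 in the other 20. The same 3 libraries had the lowest summed cardiomyocyte markers (61129 to 79962 CPM, against 90600 or more in the other 20). They also had the highest summed chemokine and receptor genes (1499, 1561 and 1008 CPM, against 446 to 851). Summed markers of macrophages were 1871 to 2903 CPM in the 3 and 443 to 1240 in the other 20. Those of neutrophils were 308 to 1544 against 3.96 to 70.9 CPM, and those of B and plasma cells 113 to 632 against 6.38 to 35.9 CPM. Not every list of immune cells set the 3 libraries apart. Summed T and NK cell markers overlapped, with 19.45 to 49.74 against 4.22 to 24.79 CPM. So did those of dendritic cells (129.54 to 136.36 against 62.11 to 159.35 CPM) and of mast cells. Of the 39 tested chemokine and receptor genes, 32 had their highest CPM in 1 of these 3 libraries (27.3% of all tested genes did), 22 of them in empty control replicate 2. In 17 of the 39 all 3 libraries lay above each of the other 20, against 9.10% of all tested genes. Values without the 3 libraries are given beside most calls of the chemokine and receptor genes and beside some other values. The numbers in the sample titles were under 2000 in both groups without swimming and over 2000 in all empty swim libraries, so with the empty vector this number series and swimming cannot be told apart. Of the miR-21 swim libraries, replicates 1 and 2 had the lower and replicates 3 to 5 the higher numbers. A model term for this series is thus set by the miR-21 swim libraries alone, and replicate 2 is 1 of the 3. Such a model takes the same difference to hold with the empty vector.

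**Figure D1:**
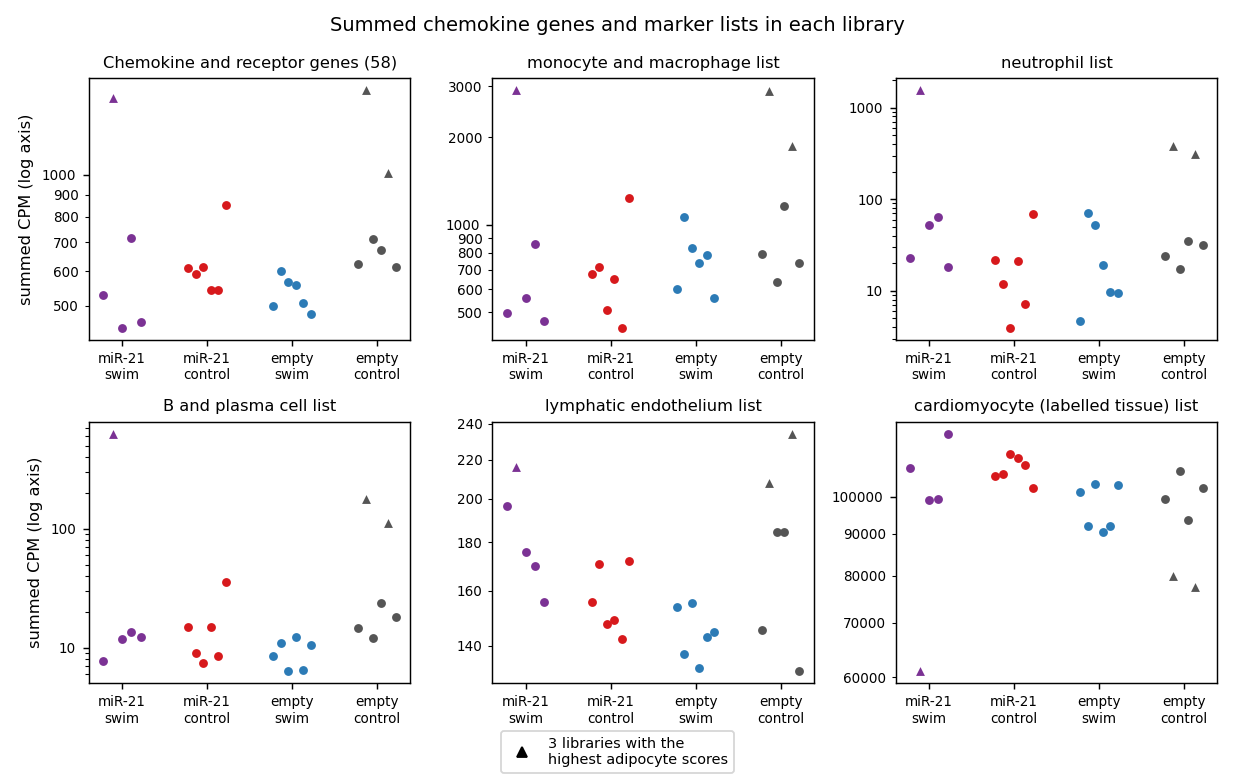
Summed CPM (log axis) in each of the 23 libraries, by group, for the 58 chemokine and receptor genes and for 5 marker lists. Triangles are the 3 libraries with the highest adipocyte scores, whose chemokine sums (1008 to 1561 CPM) lie above those of the other 20 (446 to 851 CPM), as do their macrophage, neutrophil and B cell sums, while their cardiomyocyte sums are the lowest.

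Of the 58 genes, 39 passed the filter on low counts (26 ligands, 9 receptors and all 4 atypical receptors). A gene that is high in 1 group alone can pass such a filter. Ccl21b, Ccl26 and Cxcl15 had no read in any library, and the other 16 untested genes had 7 to 146 reads over all 23 libraries together. On the per-length scale of the authors' FPKM values (fragments scaled by transcript length and library size), 29 genes averaged above 1 FPKM, and the 5 highest made up 58.71% of the summed mean of 288.64 FPKM. Highest were Cxcl12, the ligand of CXCR4, with a mean of 41.2 FPKM (24.8 to 84.4 over libraries), and Ackr3, an atypical receptor that takes up CXCL12, with 41.2 FPKM (31.7 to 51.7). The range of Ackr3 lay within that of Cxcl12. The next ligands were Ccl21a (mean 36.7 FPKM), Ccl6 (25.6), Ccl8 (24.7), Cxcl13 (16.0) and Cxcl16 (9.65). The mean of Cxcl13 was set largely by miR-21 swim replicate 2, with 296 FPKM. The signalling receptors and Ackr1 were lower: Cxcr4 averaged 7.04 FPKM, Ccr2 3.17, Cx3cr1 2.77 and Ackr1 2.17. The highest library was 1.74 times the lowest in CPM for Ackr3 and 3.13 times for Cxcl12, while Cxcl13, Ccl8 (1.21 to 184 FPKM) and Ccl6 (6.86 to 146 FPKM) spread widely within groups.

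**Figure D2:**
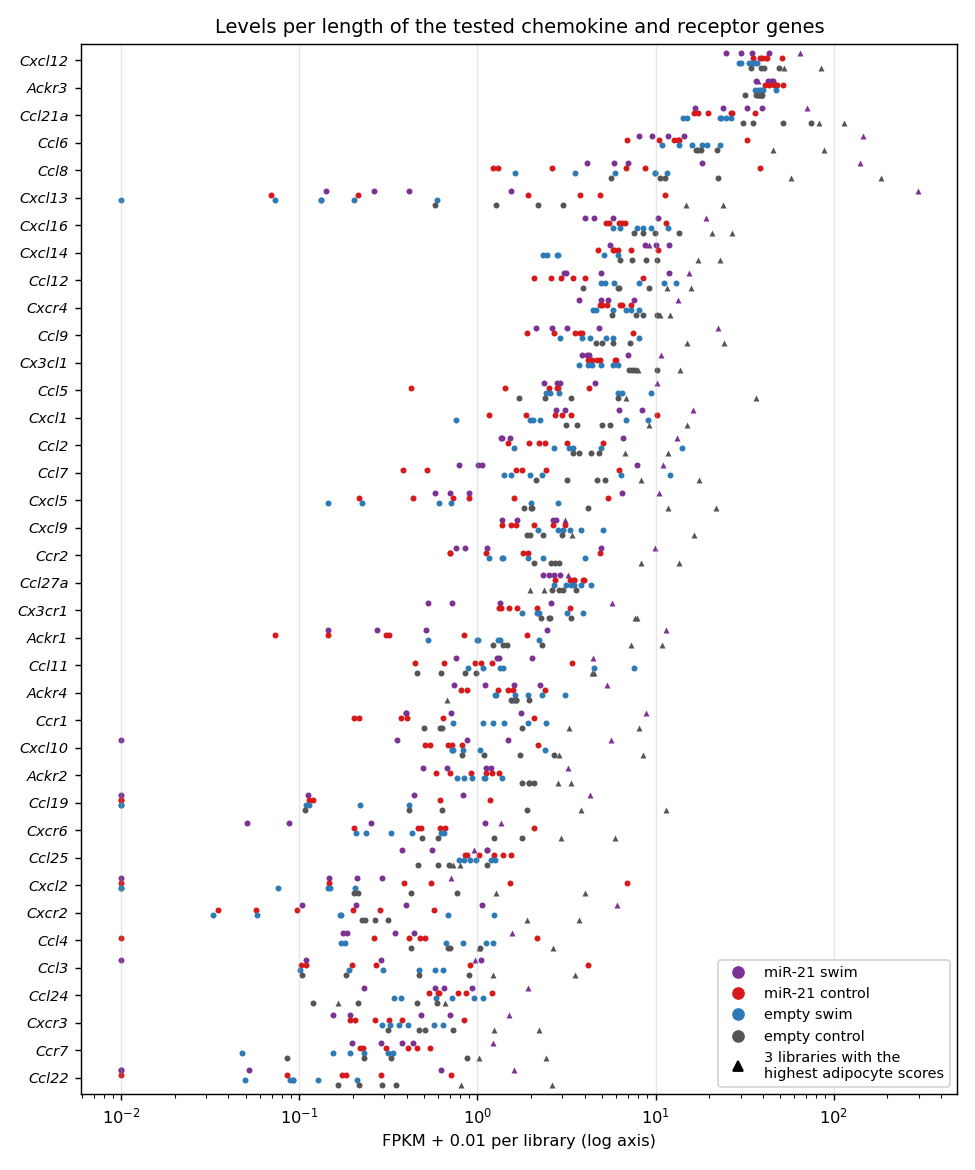
Authors' FPKM plus 0.01 (log axis) of 38 of the 39 tested genes in each of the 23 libraries, ordered by mean, coloured by group. Cxcl12 and Ackr3 stand highest with 41.2 FPKM each on average, and triangles, the 3 libraries with the highest adipocyte scores, lie at the right end of most rows.

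Which of these genes differed with swimming, with miR-21, and in the effect of swimming between the 2 vectors was tested in 1 model over all 23 libraries. Empty swim against empty control is called training under the empty vector, miR-21 control against empty control miR-21 in untrained hearts, miR-21 swim against empty swim miR-21 in trained hearts, and miR-21 swim against miR-21 control training under miR-21. Training under the empty vector had the most calls: 7 of 39 tested genes fell in empty swim relative to empty control hearts (Cxcl14, Ccl21a, Cx3cl1, Ackr2, Ccl19, Cxcr6 and Ccr7) and none rose. Over all 13501 tested genes 7.46% passed, 4.18% as higher and 3.28% as lower. The median log2 fold change of the 39 was -0.99, against -0.005 for all tested genes. Of the 39, 33 were negative, against 51.0% of all tested genes. In miR-21 control relative to empty control hearts, Ackr3 rose and Ackr2, Ccl21a and Cx3cl1 fell, 4 of 39, where 2.25% of all tested genes passed (0.881% higher, 1.37% lower). The median was -1.10 and 34 of the 39 were negative, against 51.0% of all tested genes. Both comparisons use the same 6 empty control libraries, so they are not independent of each other.

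In miR-21 swim relative to empty swim hearts, 2 of 39 genes rose (Cxcl14 and Cxcl13), where 4.58% of all tested genes passed (1.87% higher, 2.71% lower). The share of 5.13% among the 39 is near that background, and their median was 0.40. In miR-21 swim relative to miR-21 control hearts edgeR passed none of the 39, with 6 at an unadjusted p under 0.05, and DESeq2 passed none. DESeq2 gave no adjusted p in that comparison for several genes, among them Cxcl13, Cxcl2, Ccl19, Ccl22, Ccl3 and Ccl4. Of all tested genes 0.17% passed there by edgeR (0.0518% higher, 0.119% lower). The smallest p-values belonged to Ccl27a (log2 fold change -0.43 ± 0.16 SE, adjusted p = 0.167), Cxcl13 (3.76 ± 1.39, 0.176) and Cxcr2 (2.76 ± 1.07, 0.187). Without the 3 libraries these values were -0.43 (0.157) for Ccl27a, -2.66 (0.199) for Cxcl13, which thus changed direction, and 1.08 (0.605) for Cxcr2. For the interaction, the swimming effect under the miR-21 vector minus that under the empty vector, 2 of 39 genes passed, both as positive (Cxcl14 and Ccl21a), where 0.541% of all tested genes passed, 0.326% as positive and 0.215% as negative. Its median over the 39 was 1.58, with 34 positive and 5 negative, where 48.8% of all tested genes were negative. The interaction also contains the empty control libraries, so it is not independent of the 2 comparisons with empty control hearts. These counts were sensitive to single libraries. Without miR-21 swim replicate 2, 13 of the genes passed for training under the empty vector and 13 for miR-21 in untrained hearts, where 1922 and 2885 of all 13530 genes tested in that fit passed. The first count was 4 without empty swim replicate 1, 3, 5 or 6 or empty control replicate 2 or 5. The second was 0 without miR-21 control replicate 1, 2, 3 or 5 or empty control replicate 4 or 5, 1 without miR-21 control replicate 4 or empty control replicate 2, and 2 without miR-21 swim replicate 4, miR-21 control replicate 6 or empty swim replicate 1, 2, 5 or 6. For the interaction, 4, 6 and 5 genes passed without miR-21 swim replicates 1, 3 and 5, and 0 or 1 without the libraries named below with Ccl21a.

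**Figure D3:**
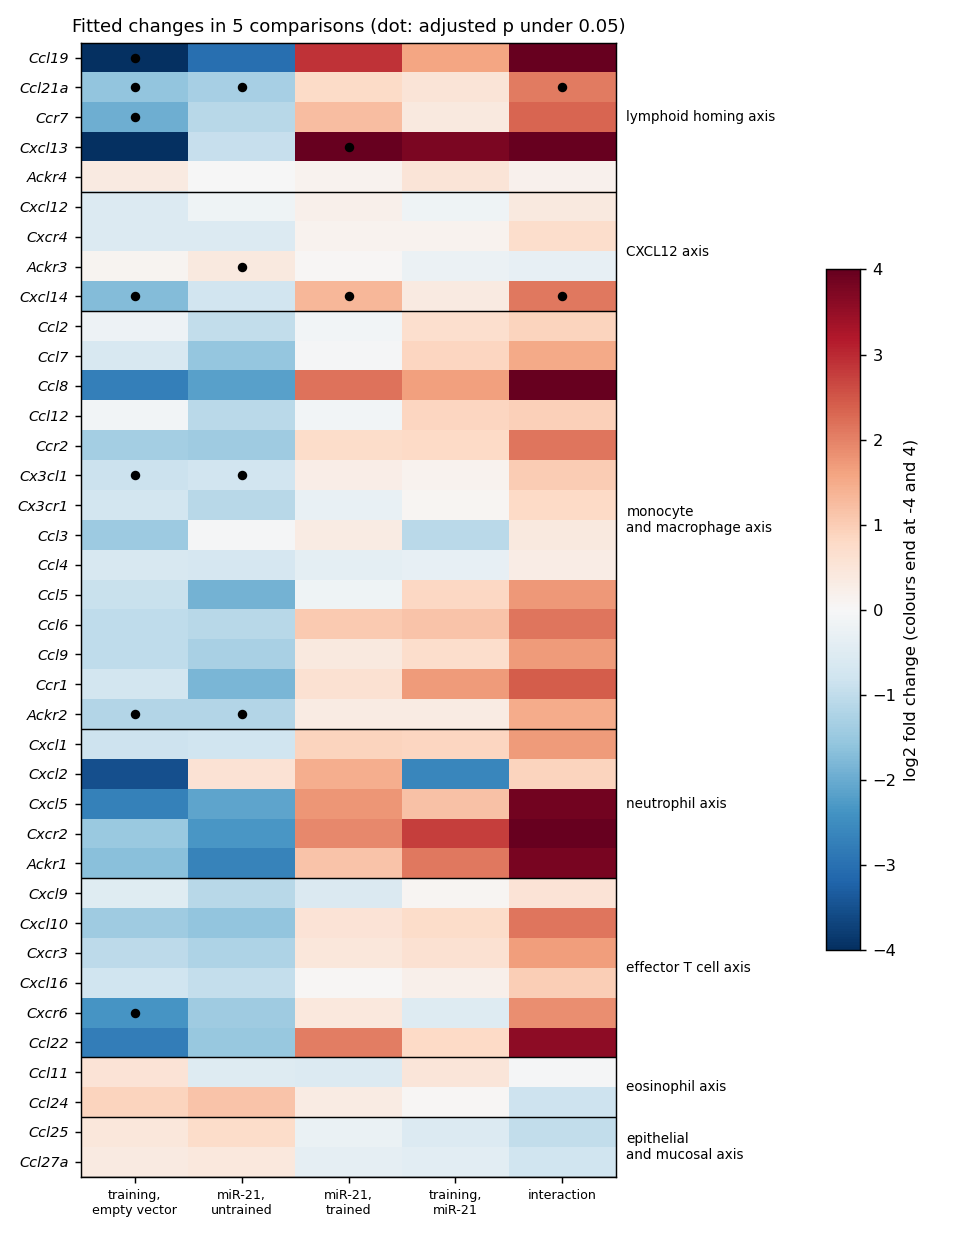
Fitted log2 fold changes of 38 of the 39 tested genes (rows, grouped by the cells they are known to guide) in the 5 comparisons (columns), with colours ending at -4 and 4 and dots where the adjusted p was under 0.05. Blue fills most of the first 2 columns, with medians over the 39 of -0.99 and -1.10, and red most of the interaction, with a median of 1.58.

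Without the 3 libraries, 36 of the genes were tested and the medians moved to -0.19 for training under the empty vector, -0.34 for miR-21 in untrained hearts, -0.22 for miR-21 in trained hearts, -0.11 for training under miR-21 and 0.13 for the interaction. In that order, 22, 28, 24, 21 and 17 of the 36 values were negative. The genes that passed were then 4 for training under the empty vector (Cxcl14, Ccl21a, Cx3cl1 and Ackr2, background 11.6%), the same 4 as with all libraries for miR-21 in untrained hearts (background 5.76%), Cxcl14 alone for miR-21 in trained hearts (17.3%), and none for training under miR-21 (1%) or the interaction (0.396%). At an unadjusted p under 0.05 there were 3 in training under miR-21 and 7 in the interaction. In bulk hearts, fewer cells of a type and less RNA per cell cannot be told apart.

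**Figure D4:**
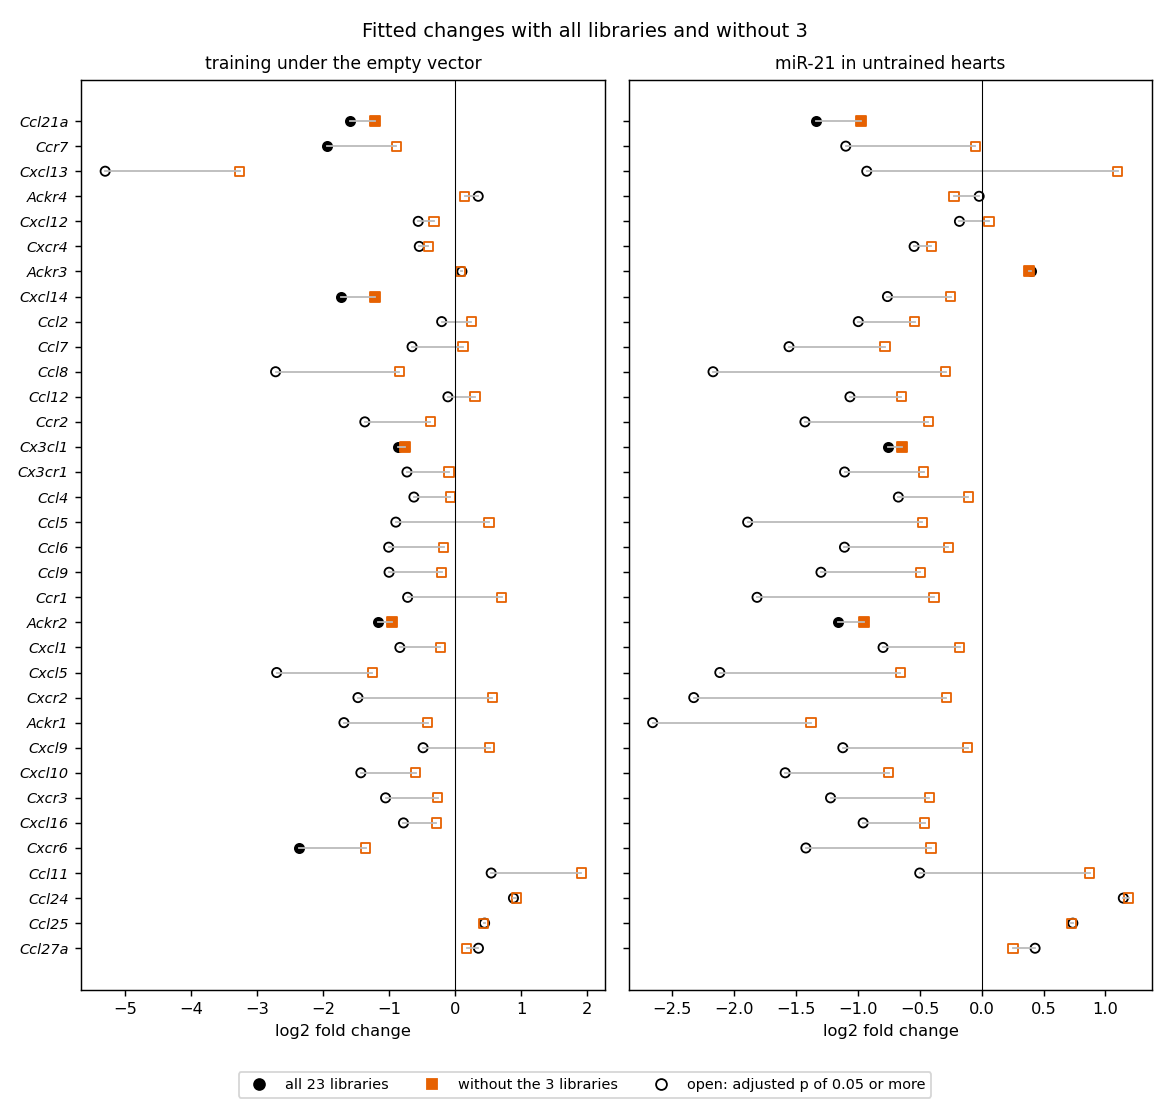
Fitted log2 fold changes of 34 of the 35 genes tested both with all 23 libraries (circles) and without the 3 libraries with the highest adipocyte scores (squares), for training under the empty vector (left) and miR-21 in untrained hearts (right). Filled symbols passed an adjusted p of 0.05; most genes moved towards 0, and the 4 filled squares of each panel stayed on their side of 0.

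In the lymphoid homing axis, Ccl21a, which lymphatic endothelium is known to secrete for CCR7-bearing cells, was the most abundant gene that changed. It had 29.0, 52.8, 21.3, 33.9 and 15.2 CPM in miR-21 swim replicates 1 to 5. In miR-21 control hearts it had 14.9 CPM at the lowest, 21.1 at the median and 31.9 at the highest, in empty swim hearts 12.7, 19.7 and 22.5, and in empty control hearts 27.1, 55.2 and 90.7. All empty swim libraries thus lay below all empty control libraries, and the miR-21 control range met the lower end of the empty control range. Ccl21a fell with training under the empty vector (log2 fold change -1.59 ± 0.31 SE, adjusted p = 0.00393) and with miR-21 in untrained hearts (-1.34 ± 0.30, adjusted p = 0.0355), in 6 of 6 libraries each. The swimming effects under the 2 vectors differed (interaction 2.09 ± 0.44, adjusted p = 0.033), and this call was kept in 11 of 23 fits that left out 1 library. It was lost without miR-21 swim replicate 2 (1.80, adjusted p = 0.0696), miR-21 control replicates 1 to 4, empty swim replicates 1, 2, 3, 5 and 6, or empty control replicates 4 and 5, each alone. Without the 3 libraries these values were -1.22 (adjusted p = 0.00842), -0.97 (0.049) and 1.43 (0.112). Adding the title number series to the model, a term set by the miR-21 swim libraries alone, made the first -0.79 (adjusted p = 0.562). The interaction was then 1.71 (adjusted p = 0.16). The identity of Ccl21a reads is uncertain, since near-identical Ccl21 copies such as Ccl21b can share them.

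Markers of lymphatic endothelium moved beside Ccl21a in part. Their sum over 6 genes was 156 to 216 CPM in miR-21 swim, 142 to 172 in miR-21 control, 133 to 155 in empty swim and 132 to 234 in empty control hearts. Mmrn1, a protein of lymphatic vessels, fell with training under the empty vector (-1.29 ± 0.33, adjusted p = 0.0225, and -0.94, 0.0652, without the 3 libraries). Flt4, the receptor for VEGF-C, fell with miR-21 in untrained hearts (-0.51 ± 0.10, adjusted p = 0.0165), and Prox1, which cardiomyocytes can also express, rose with miR-21 in trained hearts (0.55 ± 0.13, adjusted p = 0.0198). None of the 6 markers was at 0 in any group, and their part in the Ccl21a result was not tested.

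Ccl19, the other CCR7 ligand, was scarce. It had 0.0751, 2.65, 0, 0.589 and 0.330 CPM in miR-21 swim replicates 1 to 5, and 0, 0.0809 and 0.852 CPM (lowest, median, highest) in miR-21 control hearts. In empty swim hearts it had 0, 0.0729 and 0.279 CPM, or 0 to 4 reads a library, against 0.0714, 0.899 and 7.75 CPM in empty control hearts. The groups overlapped, and the top empty control value came from replicate 2, one of the 3 libraries. Ccl19 fell in empty swim relative to empty control hearts (-4.32 ± 1.17, adjusted p = 0.0285) and was too low to be tested without the 3 libraries. Leaving out empty swim replicate 1, 3, 4, 5 or 6 raised its adjusted p to between 0.0515 and 0.0658.

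Ccr7, the receptor of both, had 0.751, 2.06, 0.858, 0.368 and 0.577 CPM in miR-21 swim replicates 1 to 5. Its lowest, median and highest values were 0.427, 0.729 and 1.07 CPM in miR-21 control, 0.0742, 0.386 and 0.644 in empty swim, and 0.150, 1.16 and 4.48 in empty control hearts. Empty swim and empty control overlapped. Ccr7 fell with training under the empty vector by a small margin (-1.94 ± 0.59, adjusted p = 0.0478). That call was kept in 6 of 23 fits that left out 1 library, those without miR-21 swim replicate 2, 3 or 4 or empty control replicate 1, 3 or 6. The value was -1.27 (adjusted p = 0.174) without empty control replicate 2 and -0.89 (0.281) without the 3 libraries.

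Cxcl13, a B cell attractant, had 0.300, 294.5, 0.156, 1.77 and 0.494 CPM in miR-21 swim replicates 1 to 5. It had 0.0711, 3.41 and 13.2 CPM (lowest, median, highest) in miR-21 control, 0, 0.141 and 0.668 in empty swim, and 0.670, 2.99 and 26.1 in empty control hearts. 1 miR-21 swim library, replicate 2, stood more than 10 times above every other library, and the remaining 4 overlapped with empty swim. Cxcl13 rose in miR-21 swim relative to empty swim hearts (8.13 ± 2.01, adjusted p = 0.0263, higher in 4 of 5), and without miR-21 swim replicate 2 the value was 1.71 (adjusted p = 0.541). Leaving out empty swim replicate 1, 2, 4 or 5 gave adjusted p-values of 0.051 to 0.0619. DESeq2 gave no p-value for Cxcl13 in any comparison. Among B and plasma cell markers in the same comparison, Jchain, the joining chain of IgA and IgM, rose (6.25 ± 1.69, adjusted p = 0.0391), and it was at 1.2 (0.452) without the 3 libraries. Mesothelial markers, of the outer lining of the heart, summed to 6.84 to 204 CPM in miR-21 swim and 8.41 to 14.6 CPM in empty swim hearts, and 4 of 8 rose (Upk3b, Upk1b, Lrrn4 and Msln), none of which passed without the 3 libraries. The part of both lists in the Cxcl13 result was not tested. Ackr4, which removes CCL19 and CCL21, passed in no comparison, with log2 fold changes between -0.02 and 0.51.

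In the CXCL12 axis, Cxcl14, a chemokine of epithelia and fibroblasts that has been reported to bind CXCR4, had its lowest median in empty swim hearts. It had 14.9, 20.4, 23.3, 30.6 and 27.7 CPM in miR-21 swim replicates 1 to 5. Its lowest, median and highest values were 12.9, 16.4 and 27.3 CPM in miR-21 control, 5.92, 7.22 and 15.3 in empty swim, and 16.2, 25.3 and 56.0 in empty control hearts. The empty swim group lay below empty control without overlap, and overlapped with miR-21 swim at its highest library alone. Cxcl14 fell with training under the empty vector (-1.73 ± 0.30, adjusted p = 0.00195, 6 of 6) and rose with miR-21 in trained hearts (1.34 ± 0.32, adjusted p = 0.0187, 5 of 5). The interaction was 2.10 ± 0.43 (adjusted p = 0.0291), kept in 14 of 23 fits that each left out 1 library and lost without miR-21 swim replicate 2, miR-21 control replicates 1 to 4, empty swim replicates 1, 5 and 6, or empty control replicate 5 (1.99, adjusted p = 0.0636). For miR-21 in untrained hearts Cxcl14 had a log2 fold change of -0.76 ± 0.29 (adjusted p = 0.112), and -0.25 without the 3 libraries.

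Without the 3 libraries Cxcl14 was at -1.22 (adjusted p = 0.00871) for training under the empty vector, 1.39 (0.00278) for miR-21 in trained hearts and 1.64 (0.0746) for the interaction. It was the gene of the 7 that still passed for training under the empty vector when the title number series was added to the model (-2.35 ± 0.56, adjusted p = 0.0418). That term was set by the miR-21 swim libraries alone. With it Cxcl14 also passed the interaction (2.32 ± 0.45, 0.0449). Its call for miR-21 in trained hearts was lost without miR-21 swim replicate 4 (1.22, adjusted p = 0.0516). Within 250 bases before its start in RefSeq (GRCm38.p6), the Cxcl14 promoter held 1 match to the core of the interferon-stimulated response element (ISRE; GAAA, any 2 bases, GAAA) and 1 to the STAT motif TTCNNNGAA, with both strands searched and the 2 matches not overlapping. The windows are shown because no other tested gene of the 58 held both, with the matches in capitals.
Cxcl14 ISRE core, chr13:56296704-56296733, minus strand: gtgtccacagGAAACAGAAAagcagcaccc
Cxcl14 STAT motif, chr13:56296723-56296752, minus strand: aacctgtgtgTTCTGAGAAgtgtccacagg
The first motif was found in 3.46% of all promoters and in 3 of 29 promoters of tested chemokine and receptor genes (Ccl19, Cxcl10 and Cxcl14), the second in 8.13% and in 1 of 29.

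Ackr3, the CXCL12 scavenger, had 102, 74.3, 108, 103 and 89.5 CPM in miR-21 swim replicates 1 to 5. Its lowest, median and highest values were 100.3, 112 and 129 CPM in miR-21 control, 80.3, 89.5 and 112 in empty swim, and 75.0, 84.8 and 93.2 in empty control hearts. Every miR-21 control library lay above every empty control library, and both swimming groups overlapped with both of these. It was the 1 tested chemokine or receptor gene that rose with miR-21 in untrained hearts (0.40 ± 0.09, adjusted p = 0.0303), and it did so without the 3 libraries as well (0.38, 0.0148). Leaving out miR-21 control replicate 1, 2, 3 or 5, or empty control replicate 4 or 5, gave 0.35 to 0.41 with adjusted p-values of 0.053 to 0.0862. Swimming did not move it past the threshold under the empty vector (0.10 ± 0.09) or the miR-21 vector (-0.23 ± 0.09, adjusted p = 0.194).

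Cxcl12 itself had 258, 398, 182, 308 and 227 CPM in miR-21 swim replicates 1 to 5, with 263 to 373 CPM in miR-21 control, 213 to 264 CPM in empty swim and 243 to 569 CPM in empty control hearts, and all groups overlapped. Its swimming difference under the empty vector was just outside the threshold (-0.56 ± 0.17, adjusted p = 0.0509; 0.0199 by DESeq2) and was -0.32 (0.0931) without the 3 libraries. Cxcr4 had log2 fold changes of -0.54 ± 0.21 for training under the empty vector and -0.55 ± 0.21 for miR-21 in untrained hearts, with adjusted p-values of 0.116 and 0.11.

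Of the monocyte and macrophage axis all 15 genes were tested, and 2 of them, Cx3cl1 and Ackr2, fell in both comparisons with empty control hearts. Cx3cl1 encodes fractalkine, a membrane-bound ligand of endothelium and neurons for CX3CR1. It had 13.3, 28.8, 13.6, 21.7 and 12.8 CPM in miR-21 swim replicates 1 to 5. Its lowest, median and highest values were 13.6, 15.9 and 19.2 CPM in miR-21 control, 11.5, 14.6 and 19.0 in empty swim, and 22.7, 24.2 and 39.6 in empty control hearts. Neither group overlapped with empty control. The log2 fold changes were -0.87 ± 0.19 for training under the empty vector (adjusted p = 0.00735) and -0.75 ± 0.19 for miR-21 in untrained hearts (adjusted p = 0.044), and without the 3 libraries -0.76 (0.00248) and -0.64 (0.0204). With the title number series in the model, set by the miR-21 swim libraries alone, the first was -0.48 (adjusted p = 0.589). Of 10 markers of blood endothelium, whose cells make Cx3cl1, 5 rose with training under the empty vector and none fell, where 7.46% of all tested genes passed. Among the 5 were Erg (0.48 ± 0.09, adjusted p = 0.00267) and Icam2 (0.58 ± 0.12, 0.00403). For miR-21 in untrained hearts 8 of the 10 were negative, with a median log2 fold change of -0.10, and none passed. The part of these markers in the Cx3cl1 result was not tested.

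Ackr2, the scavenger of inflammatory CC chemokines, had 3.83, 8.65, 1.56, 3.46 and 2.22 CPM in miR-21 swim replicates 1 to 5. Its lowest, median and highest values were 1.94, 3.30 and 4.19 CPM in miR-21 control, 2.30, 3.12 and 4.25 in empty swim, and 5.62, 6.33 and 9.60 in empty control hearts. Again neither group overlapped with empty control, while miR-21 swim replicate 2 reached its range. It fell with training under the empty vector (-1.17 ± 0.29, adjusted p = 0.0179; -0.96, 0.00627 without the 3 libraries) and with miR-21 in untrained hearts (-1.16 ± 0.29, adjusted p = 0.044; -0.95, 0.0188). Adding the title number series to the model turned the swimming value to 0.20 (adjusted p = 0.866). The added term rests on miR-21 swim replicates 1 and 2 against replicates 3 to 5, and replicate 2 had the highest Ackr2 of that group. For miR-21 in untrained hearts, the calls of Ackr2 and of Cx3cl1 were each kept in 9 of 23 fits that left out 1 library, and the highest adjusted p-values were 0.134 and 0.141, both without empty control replicate 5. Both were lost without miR-21 swim replicate 4, any 1 miR-21 control library, empty swim replicate 1, 2, 5 or 6, or empty control replicate 2, 4 or 5. That of Ccl21a was kept in 15 of 23 and lost without miR-21 control replicate 1, 2, 3, 4 or 5 or empty control replicate 2, 4 or 5, with 0.109 at the highest, without empty control replicate 5.

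The other 13 genes of this axis passed in no comparison by edgeR with all libraries. DESeq2 passed Ccl8 for training under the empty vector (adjusted p = 0.0379) and for the interaction (0.0345), and Ccl5 for miR-21 in untrained hearts (0.0303). With the title number series in the edgeR model, Ccl6 passed for training under miR-21 (2.12, adjusted p = 0.0479). That value rests on miR-21 swim replicates 1 and 2, and replicate 2 had 178.9 CPM. Without the 3 libraries, and without the series term, Ccl6 was at -0.47 there (adjusted p = 0.541). With training under the empty vector all 15 values were negative, from -2.72 (Ccl8, a ligand of CCR8 in mice) to -0.11 (Ccl12, a monocyte attractant), with a median of -0.90 that became -0.13 without the 3 libraries. For miR-21 in untrained hearts they ran from -2.17 to -0.04, with medians of -1.11 and -0.47. Ccl8 showed the spread behind these values. It had 3.68, 61.4, 3.04, 9.27 and 2.22 CPM in miR-21 swim replicates 1 to 5, and 0.640, 2.54 and 20.1 CPM (lowest, median, highest) in miR-21 control hearts. In empty swim hearts it had 0.841, 3.93 and 5.78 CPM, against 2.93, 8.55 and 88.6 CPM in empty control hearts. All groups overlapped, and the highest library of 2 groups was 1 of the 3. Without the 3 libraries Ccl8 was at -0.85 for training under the empty vector and -0.29 for miR-21 in untrained hearts. Ccr2, the monocyte receptor, had log2 fold changes of -1.37 ± 0.62 (adjusted p = 0.189) for training under the empty vector and -1.43 ± 0.63 (0.148) for miR-21 in untrained hearts, and -0.38 and -0.43 without the 3 libraries. Ccl6 had -1.01 ± 0.61 and -1.11 ± 0.61, and -0.17 and -0.27 without the 3 libraries. Macrophage markers had a median log2 fold change of -0.64 for training under the empty vector and -0.94 for miR-21 in untrained hearts, 1 of 20 (Gpnmb, -2.65 ± 0.63, adjusted p = 0.0144; -1.56, 0.0643 without the 3 libraries) and 0 of 20 passing. Their summed CPM was 467 to 2903 in miR-21 swim, 443 to 1240 in miR-21 control, 558 to 1060 in empty swim and 638 to 2895 in empty control hearts, and their part in the results was not tested.

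Of the neutrophil axis 5 of 8 genes were tested and none passed by edgeR. DESeq2 passed Cxcl2 (adjusted p = 0.014) and Cxcl5 (0.0251) for training under the empty vector, Ackr1 for miR-21 in untrained hearts (0.0202), and Ackr1 (0.0285) and Cxcl5 (0.0446) for the interaction. Cxcr2, the receptor of neutrophils, had 0.300, 16.3, 1.25, 3.24 and 0.659 CPM in miR-21 swim replicates 1 to 5. It had 0.0844, 0.452 and 1.78 CPM (lowest, median, highest) in miR-21 control, 0.0716, 0.491 and 3.70 in empty swim, and 0.675, 0.881 and 10.9 in empty control hearts. Its interaction was 4.24 ± 1.45 (adjusted p = 0.117), and 0.52 (0.912) without the 3 libraries. Cxcl5, a CXCR2 ligand, had -2.71 ± 0.91 with training under the empty vector (adjusted p = 0.0727; -1.25, 0.397 without the 3 libraries). Cxcl2 had -3.51 ± 1.15 there (0.0649) and was not tested without the 3 libraries. Ackr1, which carries chemokines across the walls of venules, had -2.66 ± 0.87 for miR-21 in untrained hearts (adjusted p = 0.0779), and -1.38 (0.216) without the 3 libraries. Neutrophil markers, none of them at 0 throughout a group, summed to 18.1 to 1544 CPM in miR-21 swim, 3.96 to 68.9 in miR-21 control, 4.72 to 70.9 in empty swim and 17.1 to 384 in empty control hearts. Their part in these values was not tested. Cxcl1, Cxcl2 and Cxcl3 are close paralogs whose reads may be split between them.

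The κB motif, which NF-κB binds in many inflammatory genes, was found in the promoters of 5 of 29 tested genes of the 58 with a promoter in RefSeq (Ackr2, Ccl9, Cxcl1, Cxcl10 and Cxcl2, 17.24%), against 4.46% of all 27025 promoters and 5.58% of those of tested genes. 4 windows are shown with the match in capitals, that of Ackr2 because it fell in 2 comparisons and those of Cxcl2, Cxcl1 and Cxcl10 as the textbook inducible genes (GRCm38.p6).
Ackr2, chr9:121898121-121898150, plus strand: acagcacagtGGGGAATCCCactgaggggg
Cxcl2, chr5:90903792-90903821, plus strand: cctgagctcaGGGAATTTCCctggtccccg
Cxcl1, chr5:90891164-90891193, plus strand: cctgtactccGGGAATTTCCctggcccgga
Cxcl10, chr5:92348973-92349002, minus strand: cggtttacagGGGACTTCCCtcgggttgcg
Cxcl2 and Cxcl1 held the same 10-base match. Of the 5 genes with a match, edgeR passed Ackr2 alone, and DESeq2 also passed Cxcl2. For training under the empty vector the other 4 had log2 fold changes of -1.0 (Ccl9), -0.84 (Cxcl1), -1.43 (Cxcl10) and -3.51 (Cxcl2). The first 3 of these were -0.20, -0.23 and -0.60 without the 3 libraries, and Cxcl2 was not tested.

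Of the 13 genes of the effector T cell axis 6 were tested and 1 passed by edgeR, while DESeq2 also passed Ccl22 (training under the empty vector, adjusted p = 0.0447) and Cxcl16 (miR-21 in untrained hearts, 0.0349). Cxcr6, a receptor of memory T and NK T cells for CXCL16, had 0.150, 2.18, 0.468, 2.06 and 0.0824 CPM in miR-21 swim replicates 1 to 5. Its lowest, median and highest values were 0.384, 1.05 and 3.98 CPM in miR-21 control, 0.371, 0.695 and 1.18 in empty swim (5 to 17 reads a library), and 0.929, 2.84 and 10.6 in empty control hearts. Empty swim and empty control overlapped narrowly. Cxcr6 fell with training under the empty vector (-2.37 ± 0.68, adjusted p = 0.0366, 6 of 6). The call was lost without any 1 of 8 libraries (empty swim replicates 1, 2, 3, 5 and 6 and empty control replicates 2, 4 and 5), with -1.77 (adjusted p = 0.099) without empty control replicate 2, and it was -1.36 (0.172) without the 3 libraries. Its ligand Cxcl16 had -0.78 ± 0.33 (adjusted p = 0.15) there and -0.96 ± 0.33 (0.0884) for miR-21 in untrained hearts, and -0.29 and -0.46 without the 3 libraries. Of 9 tested T and NK cell markers, Cd4, a co-receptor of helper T cells (-1.72 ± 0.49, adjusted p = 0.0334), and Cd3e, a chain of the T cell receptor complex (-2.93 ± 0.87, 0.0414), fell with training under the empty vector, and neither passed without the 3 libraries (-0.74 and -1.76). Summed T and NK cell markers were 4.22 to 14.9 CPM in empty swim and 6.14 to 49.7 CPM in empty control hearts, and their part in the Cxcr6 result was not tested. Cxcl9 and Cxcl10, interferon-induced ligands of CXCR3, and Cxcr3 itself passed nowhere.

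With all libraries, the tested genes that did not share the negative sign of the rest were few. For training under the empty vector the 6 positive values were those of Ccl24 (0.88 ± 0.45), Ccl11 (0.55 ± 0.63), Ccl25 (0.45 ± 0.27), Ccl27a (0.35 ± 0.15), Ackr4 (0.35 ± 0.37) and Ackr3 (0.10 ± 0.09), and none of them passed. Without the 3 libraries 14 of 36 values were positive there and 22 negative, and Ccl27a and Ackr4 were at 0.17 and 0.15. Ccl11 and Ccl24 are eosinophil attractants, and Ccl25 and Ccl27a are known for gut and skin. Ccl11 was the tested gene with the largest positive value once the 3 libraries were left out (1.91 ± 0.65, adjusted p = 0.0642). Ccl27a was steady, at 3.01 to 7.05 CPM over all libraries, and its interaction was -0.78 ± 0.22 (adjusted p = 0.0681; 0.0235 by DESeq2). Its reads can be shared with Ccl27b, a near copy.

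Other genes of the pathway came from lists drawn up by function. For the lists here and in the next paragraph, the background is the share of all tested genes that passed. It was 7.46% for training under the empty vector, 2.25% for miR-21 in untrained hearts, 4.58% for miR-21 in trained hearts and 0.541% for the interaction. Of 46 tested genes of chemokine receptor signalling, 3 passed for training under the empty vector: Rgs1, which dampens receptor signalling in leukocytes (-3.08 ± 0.71, adjusted p = 0.0106), Grk5, a receptor kinase (-0.49 ± 0.12, 0.0124), and Akt1 (0.41 ± 0.10, 0.0205). For miR-21 in untrained hearts Rgs1 (-3.02 ± 0.71, adjusted p = 0.037), Vav3 (-0.44 ± 0.11, 0.0446) and Arrb1, a β-arrestin (-0.56 ± 0.15, 0.049), fell. For miR-21 in trained hearts Vav3 (-0.46 ± 0.12, 0.0297) and Rhoa (-0.21 ± 0.06, 0.0482) fell, and Rgs1 passed the interaction (4.74 ± 1.04, 0.0375). Rgs1 was low, with 0.0698 to 0.445 CPM in empty swim and 0.429 to 4.68 CPM in empty control hearts, and was not tested without the 3 libraries. Vav3 and Arrb1 were then at -0.29 each for miR-21 in untrained hearts (adjusted p = 0.0913 for Vav3 and 0.0404 for Arrb1), and the calls of Grk5, Akt1 and Rhoa, and of Vav3 in trained hearts, were kept.

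Of 25 tested inducers of chemokine transcription, Ifngr2, a chain of the interferon-γ receptor, rose and Tlr4, the endotoxin receptor, fell for training under the empty vector (0.30 ± 0.08, adjusted p = 0.0252, and -0.51 ± 0.15, 0.0352). Both moved likewise for miR-21 in untrained hearts (0.31 ± 0.08, adjusted p = 0.044, and -0.55 ± 0.15, 0.049), where Tnfrsf1a, a TNF receptor, also fell (-0.50 ± 0.13, 0.049). All 5 of these calls held without the 3 libraries. Of 15 genes that cleave or retain chemokines, Mmp12, the macrophage elastase, fell with training under the empty vector (-2.39 ± 0.73, adjusted p = 0.0486), and Mmp2 (-1.12 ± 0.28, 0.0436) and the heparan sulphate carrier Sdc1 (-1.41 ± 0.37, 0.049) fell with miR-21 in untrained hearts. Mmp12 was at -1.18 (adjusted p = 0.274), Mmp2 at -0.76 (0.0603) and Sdc1 at -0.80 (0.0436) without the 3 libraries. Of 18 tested chemokine-like genes and receptors with other symbols, none passed in any comparison by edgeR.

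**Figure D5:**
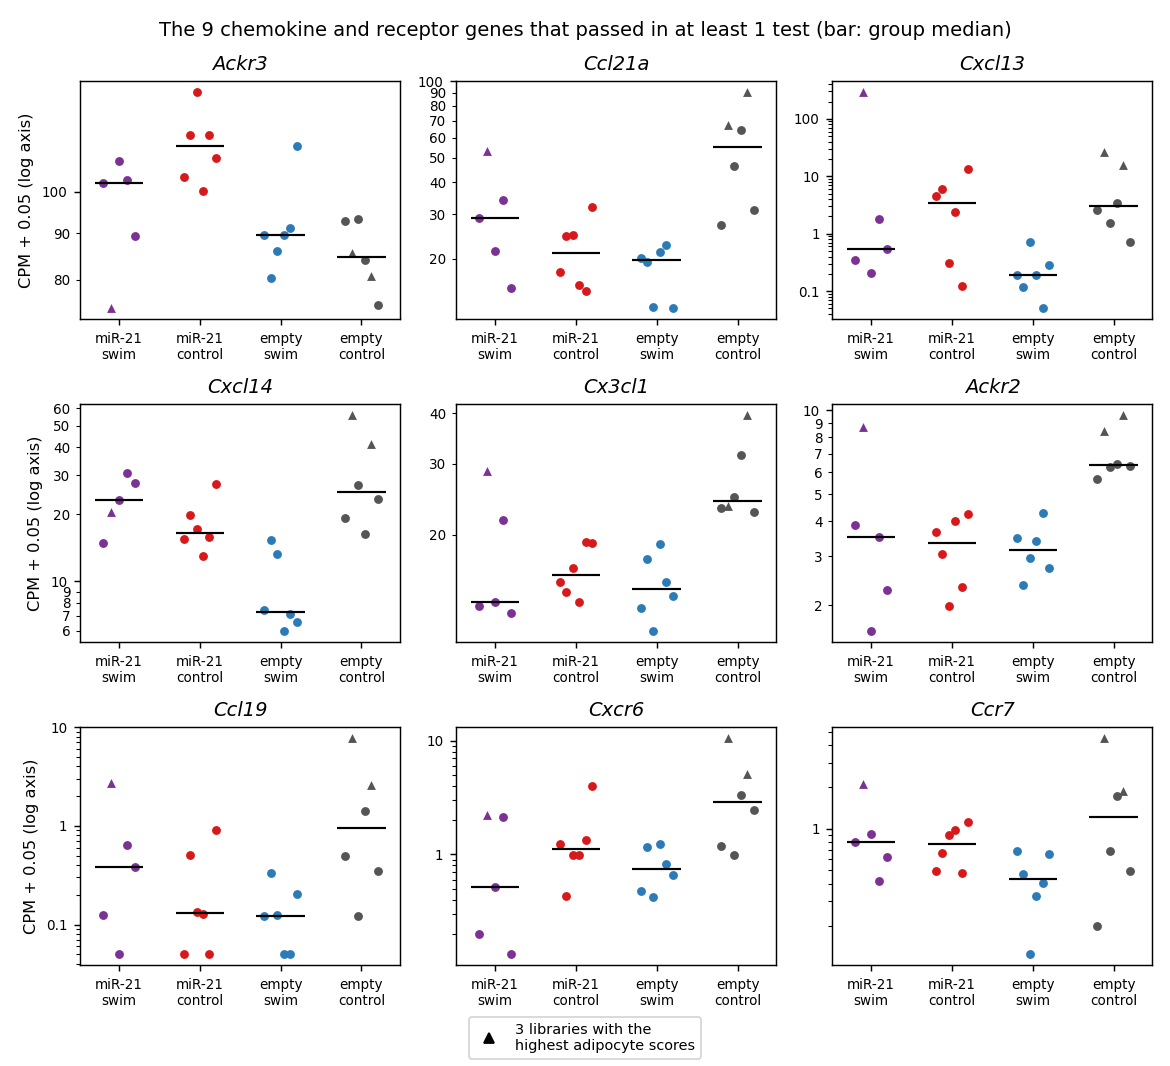
CPM plus 0.05 (log axis) in each library for the 9 genes that passed in at least 1 test, with bars at the group medians and triangles for the 3 libraries with the highest adipocyte scores. Ackr2 and Cx3cl1 show miR-21 control and empty swim wholly below empty control, Ackr3 shows miR-21 control wholly above it, and Cxcl13 rests on 1 miR-21 swim library at 294.5 CPM.

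The authors' deposited tables of the 4 comparisons, whose method is not stated in the labels used here, put 5 of the 58 genes under an adjusted p of 0.05 for training under the empty vector (Ackr2, Ccl17, Ccl21a, Cx3cl1 and Cxcl14), 5 for miR-21 in untrained hearts (Ackr2, Ackr3, Ccl21a, Cx3cl1 and Cxcr4), 1 for miR-21 in trained hearts (Cxcl14) and 0 for training under miR-21. Over all genes with an adjusted p in those tables, 699 of 17343, 1093 of 17348, 145 of 17327 and 22 of 17324 were under 0.05. Of the chemokine and receptor genes, 4, 4, 1 and 0 were among the calls given above. Ccl17 had at most 0.67 CPM in any library and did not pass the filter on low counts here.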

How the data were processed

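Stranded mRNA libraries were made from TRIzol-extracted RNA, per the labels' protocols. Reads refer to GRCm39, per the submitters' processing notes; the aligner and counter are not stated there. The deposited table holds raw counts per gene (whole numbers, not normalised) and the authors' FPKM for 23 of 24 labelled samples; miR-21 swim replicate 6 was not analysed here, and 46 further per-sample columns were not used. The authors' deposited comparison tables give log2 fold changes, linear fold changes (ratios), p-values and adjusted p-values (q-values).

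Groups came from the labels, and replicate numbers were given in accession order. The labels do not state that libraries are from separate mice, so p-values measure the spread between these samples. Counts were filtered with filterByExpr (13501 genes left), scaled by TMM and fitted with edgeR's quasi-likelihood test (robust) over all 23 libraries, with Benjamini-Hochberg adjustment over all tested genes and a threshold of 0.05. CPM is TMM-normalised, and ± is the standard error (SE) of a log2 fold change. A library counted as higher or lower when it lay above or below the mean CPM of the group it was set against. That mean is on the linear scale, so 1 high library can raise it. Pearson's r of log2 CPM between libraries was 0.905 to 0.990 across genes, and 0 pairs were identical. The model was checked on simulated counts.

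The members, lists and roles were chosen with earlier results of these data known. Values in every sample are given for the genes that passed in at least 1 of 5 tests, and levels for those of the 6 ligands and 6 receptors with the highest mean FPKM; the values of 1 of the 58 genes are not reported here; where a test passed none, the 3 smallest p-values are given. From each other list up to 4 changed genes per comparison are named. The adipocyte score is the mean of centred log2 CPM (prior count 2) over the tested adipocyte markers. Reads were not recounted, so near-identical paralogs stay as the authors counted them.

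Promoters (250 bases before the start, 44 of the 58 genes) and the miRNA are from RefSeq tables of GRCm38.p6, and UTRs from GENCODE M21. Since that build differs from the one of the counts, its coordinates are given for sequences only. Alternatives were RLE scaling, no filter or a mean of at least 1 CPM, DESeq2, the title number series added to the model, the miR-21 swim group split by it, each library left out, and, chosen after seeing the data, the 3 adipocyte-high libraries left out. Versions were edgeR 4.0.16, DESeq2 1.42.0 and limma 3.58.1 in R 4.3.3, and pandas 2.3.3, numpy 2.4.6 and matplotlib 3.10.9 in Python 3.11.15.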

Additional observations from a re-analysis of the deposited data

Results flagged for a closer look

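Of 80 groups of values (20 named genes in 4 groups), 17 held a sample that stood apart from the others of its group by Dixon's test at the 95% level. For normally distributed values and independent groups, chance gives this in about 1 of 20. The test was run on CPM without a log, the same libraries recur across genes, and some genes were named for their calls. That rate is thus no measure of excess here. In miR-21 swim hearts replicate 2 was the outlying sample, as the highest, for Cxcl13 at 294.5 CPM (next 1.77), Ccl6 at 178.9 CPM (next 20.7), Ccl8 at 61.42 CPM (next 9.27), Cxcr2 at 16.3 CPM (next 3.24), Ackr1 at 11.3 CPM (next 2.80) and Ccl19 at 2.647 CPM (next 0.589).

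In miR-21 control hearts replicate 6 was the highest and outlying sample for Cxcr6 (3.978 CPM, next 1.28), Ccl6 (47.45, next 20.5), Ccl8 (20.1, next 4.57), Cxcl16 (29.26, next 17.5) and Ccr2 (19.53, next 7.81). In empty swim hearts the outlying samples were replicate 6 for Ackr3 (112.3 CPM, next 91.2) and replicate 3 for Cxcl13 (0.6681 CPM, next 0.229). In empty control hearts replicate 2 was outlying for Cxcl12 (569.3 CPM, next 362), Ccl6 (119.9, next 59.9), Ccl8 (88.64, next 26.9) and Ccl19 (7.755, next 2.51).

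By edgeR 2 of the 39 tested genes passed the interaction test, Cxcl14 (2.098 on the log2 scale) and Ccl21a (2.092), where 0.541% of all tested genes passed. The calls were kept in 14 and 11 of 23 fits that left out 1 library. Neither passed without the 3 libraries with the highest adipocyte scores (adjusted p = 0.0746 and 0.112). With the empty vector, swimming cannot be told apart from the title number series.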

How the results depend on the processing

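No paired analysis was possible because the labels give no replicate numbers shared between groups. DESeq2 passed more of the 58 genes for training under the empty vector (13), miR-21 in untrained hearts (7) and the interaction (10), and 1 for miR-21 in trained hearts; over all genes it passed 1415, 1225, 929, 379 and 754 for training under the empty vector, miR-21 in untrained and trained hearts, training under miR-21 and the interaction. Without a filter miR-21 in untrained hearts had 2 of the 58 genes and 150 of all genes, and training under miR-21 0 of all genes. With the title number series in the model, its term was set by the miR-21 swim libraries alone. Counts for training under the empty vector were then 1 of the 58 and 164 of all genes, and Ackr2 turned to 0.2034. For miR-21 in untrained hearts 911 of all genes passed, and for the interaction 1 of the 58 and 25 of all genes. That model and the split of the miR-21 swim group both gave 1 of the 58 for miR-21 in trained hearts, and 2 of the 58 (Cxcl13, adjusted p = 0.0279, and Ccl6, 0.0479) and 1076 of all genes for training under miR-21, which then rests on miR-21 swim replicates 1 and 2. Without the 3 adipocyte-high libraries the 58 genes had 4, 1 and 0 for training under the empty vector, miR-21 in trained hearts and the interaction, and over all genes there were 1555 for training under the empty vector, 771 for miR-21 in untrained and 2318 in trained hearts, and 134 for training under miR-21.

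Leaving out each library gave 4 to 13 of the 58 genes for training under the empty vector, 0 to 13 for miR-21 in untrained hearts, 1 to 2 in trained hearts, 0 to 0 for training under miR-21 and 0 to 6 for the interaction. The count of 13 came in both cases without miR-21 swim replicate 2. Over all genes the ranges, for the tests named in that order, were 607 to 1922, 17 to 2885, 330 to 1871, 0 to 86 and 18 to 358. Of 429 fits of the 15 calls under all alternatives, 313 kept the call, 115 kept the direction alone and 1 reversed; the cause was not tested. Ccl19, Ccr7 and Cxcr6 had 0 to 17 reads in each empty swim library, which limits their values.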
